A study of Homo sapiens with 6 samples.

Results

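Mitochondrial ribosomal protein genes encode the proteins of the mitoribosome, and were taken as all genes whose symbol is MRPL or MRPS followed by a number, with A, B or C allowed after it. The symbols matched 78 of the 40173 genes in the deposited table, which counts reads per transcript, and 476 of its 151453 transcripts that carry a gene. All 78 genes are protein coding in GENCODE 29, and all 78 passed the expression filter. RNA was sequenced from HCT116 cells, a human colorectal cancer line used at passage 15 to 20, in 2 groups with 3 biological replicates each. MOCK cells, whose genotype is given as wild type, had received a MOCK lentivirus, and CYGB cells (genotype CYGB overexpression) had received a lentivirus with the coding region of CYGB, the haem protein cytoglobin, fused to FLAG. The virus gives constitutive expression, and both groups were selected with puromycin, so each is a selected stable line. Whether clones were picked, or whether the replicates of a group came from separate transductions, is not stated, and an effect of CYGB cannot be told apart from a difference between the 2 transduced populations.

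The mitoribosome lies in the mitochondrial matrix and translates the few mRNAs encoded by mitochondrial DNA, all of them for subunits of the respiratory chain and ATP synthase. Its ribosomal RNAs are transcribed from mitochondrial DNA, whereas its proteins are encoded in the nucleus, made in the cytosol and imported. The small subunit reads the mRNA and the large subunit joins the amino acids, and both hold proteins with counterparts in bacterial ribosomes beside proteins that occur only in mitochondria.

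The promoters of the genes shared short sequence matches that the choice by symbol did not use. RefSeq promoters (GRCh38.p14, from 250 bases before to 50 bases after the transcript start) were matched for 69 of the 78 genes. They were searched on both strands for CCGGAAG, the core bound by ETS factors such as GABPA, for AAGATGG, the core of the YY1 site, and for TGCGCA, a core of the NRF1 site. The ETS core was found in 29 of the 69 promoters (42.0%), against 10.7% of all 27305 promoters and 17.2% of those of the other tested genes. The YY1 core was found in 23 promoters (33.3%), against 6.06% of all promoters and 7.04% of those of other tested genes. The NRF1 core was found in 14 promoters (20.3%), against 8.42% and 12.5%. An ETS or a YY1 core was present in 43 promoters (62.3%), against 15.9% of all promoters and 22.7% of those of other tested genes. No ETS match overlapped a YY1 match in these promoters.

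The positions of the matches differed between the cores. The 39 ETS matches had their first base at a median of 22 bases before the start, or -22, and 28 of them began at -60 or later. The 24 YY1 matches had a median first base at 9 bases after the start, and 20 of them were on the strand of the gene. The 17 NRF1 matches lay further upstream, with a median first base at -76 and 6 of them from -60 on. The YY1 core contains ATG, the start codon, and matches just after the start can include the first codon of the gene. A match is a description of the sequence and not evidence of binding.

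Windows from 120 bases before to 30 bases after the start are shown for 5 genes. MRPS12 encodes a protein of the decoding centre, MRPS18B was higher in every CYGB library, MRPS30 was among the steadiest genes, and MRPL33 and MRPL49 had the lowest and the second highest log2 fold change of the 78. Capitals mark an ETS core in MRPS12 and MRPL33 and a YY1 core in MRPS18B, MRPS30 and MRPL49. The windows are chr19:38930824-38930973, chr6:30617720-30617869, chr5:44808827-44808976, chr2:27771599-27771748 and chr11:65122063-65122212, all on the plus strand.
MRPS12: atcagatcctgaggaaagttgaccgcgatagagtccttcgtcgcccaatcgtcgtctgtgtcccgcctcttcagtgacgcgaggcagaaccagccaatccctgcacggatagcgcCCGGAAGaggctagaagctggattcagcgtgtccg
MRPS18B: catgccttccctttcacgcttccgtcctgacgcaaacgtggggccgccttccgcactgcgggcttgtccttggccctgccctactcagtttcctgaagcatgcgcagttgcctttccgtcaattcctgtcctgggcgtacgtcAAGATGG
MRPS30: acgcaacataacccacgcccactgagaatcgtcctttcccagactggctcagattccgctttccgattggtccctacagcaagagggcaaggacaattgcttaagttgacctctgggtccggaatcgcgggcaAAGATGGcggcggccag
MRPL33: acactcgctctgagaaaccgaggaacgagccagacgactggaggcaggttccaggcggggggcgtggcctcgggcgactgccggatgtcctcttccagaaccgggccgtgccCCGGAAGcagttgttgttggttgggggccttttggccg
MRPL49: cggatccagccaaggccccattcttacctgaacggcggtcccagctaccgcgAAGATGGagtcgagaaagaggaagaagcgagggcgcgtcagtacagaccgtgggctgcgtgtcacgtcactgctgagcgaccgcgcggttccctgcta
The ETS core began 5 bases before the start in MRPS12 and 8 bases before it in MRPL33. The YY1 core began 23 bases after the start in MRPS18B and 13 bases after it in MRPS30, but 68 bases before it in MRPL49.

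**Figure D1:**
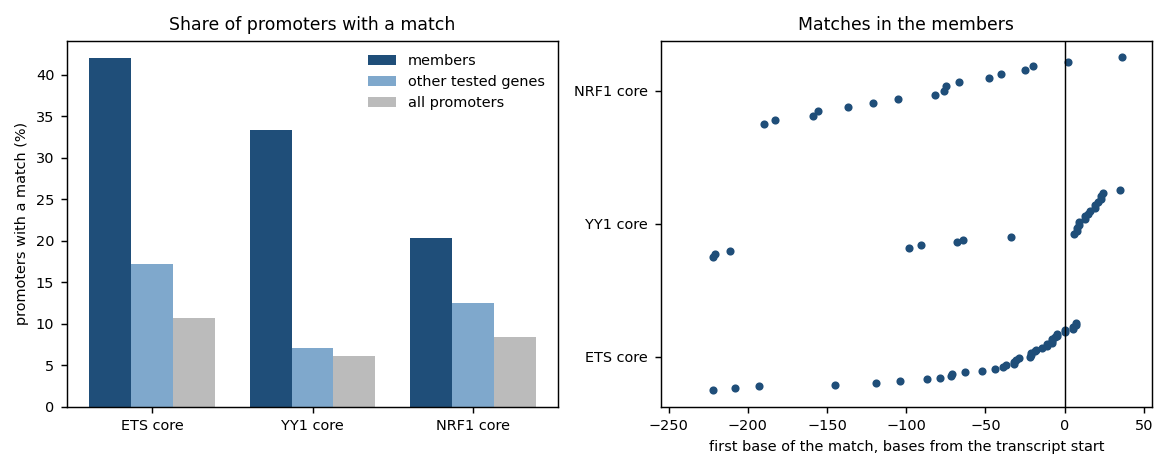
Left, the share of promoters (in %) that hold each core, with bars for the 69 promoters of mitochondrial ribosomal protein genes, for those of other tested genes and for all promoters. Right, the first base of each match in the 69 promoters, in bases from the transcript start (vertical line), with height within a row only separating the points. The dark bars are above the others for all 3 cores, and most ETS and YY1 points lie near the start.

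Counts assigned to genes ranged from 47193496 to 53531777 per library, and the 78 genes together held 0.412 to 0.471% of them. The values below are CPM, the counts of a gene over all its transcripts scaled to library size with edgeR's TMM factors. CYGB itself was at 0.21 to 0.66 CPM in MOCK and 545 to 691 CPM in CYGB libraries, as the labels state. Of 7 colon epithelial markers, EPCAM, KRT8, KRT18, KRT19, CDH1 and CDX2 were at 14.9 CPM or more in every library, whereas VIL1 was at 0.79 CPM or less. Of 6 markers of other cells, PTPRC, COL3A1, DCN and PECAM1 were at 0.39 CPM or less, VIM at 7.40 to 9.17 CPM and COL1A1 at 44.3 to 53.7 CPM. The biological coefficient of variation common to all genes was 36.6%. Of the 78 genes, 47 overlap another gene with counts, 37 of them on the other strand, and whether the counting used strand is not stated.

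The libraries hold RNA and do not give protein amounts. The RNA of the 78 genes was compared between CYGB and MOCK to see whether it shifted with CYGB overexpression. None passed the call rule of the study's methods, which asks for p at or below 0.01 before adjustment and a ratio of at least 2 or at most 0.5. Over all 19987 genes tested, 0.565% passed it, 0.28% higher and 0.285% lower in CYGB. None reached an adjusted p under 0.05 in the quasi-likelihood fit of edgeR with the Benjamini-Hochberg method (background 0.055%), and the smallest adjusted p was 0.963. With DESeq2 the numbers were likewise 0 and 0. An unadjusted p under 0.05 was reached by 2 genes with edgeR, MRPL49 and MRPS18B (2.56%, background 4.54%), and by 3 genes with DESeq2.

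Most fold changes were small. The median log2 fold change of the 78 genes was 0.03, beside -0.01 over all genes tested. It was above 0 in 46 genes (59.0%, background 48.8%) and below 0 in 32 genes, and 66 of the 78 lay between -0.2 and 0.2. The extremes were -1.23 in MRPL33 and 0.95 in MRPL9. The 95% interval of the log2 fold change lay within -1 and 1 for 65 genes (83.3%), against 56.0% of all genes tested. For the other 13 genes a change of 2-fold in at least 1 direction was not bounded by these 6 libraries. In bulk RNA, fewer cells that express a gene and less of its RNA per cell cannot be told apart.

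**Figure D2:**
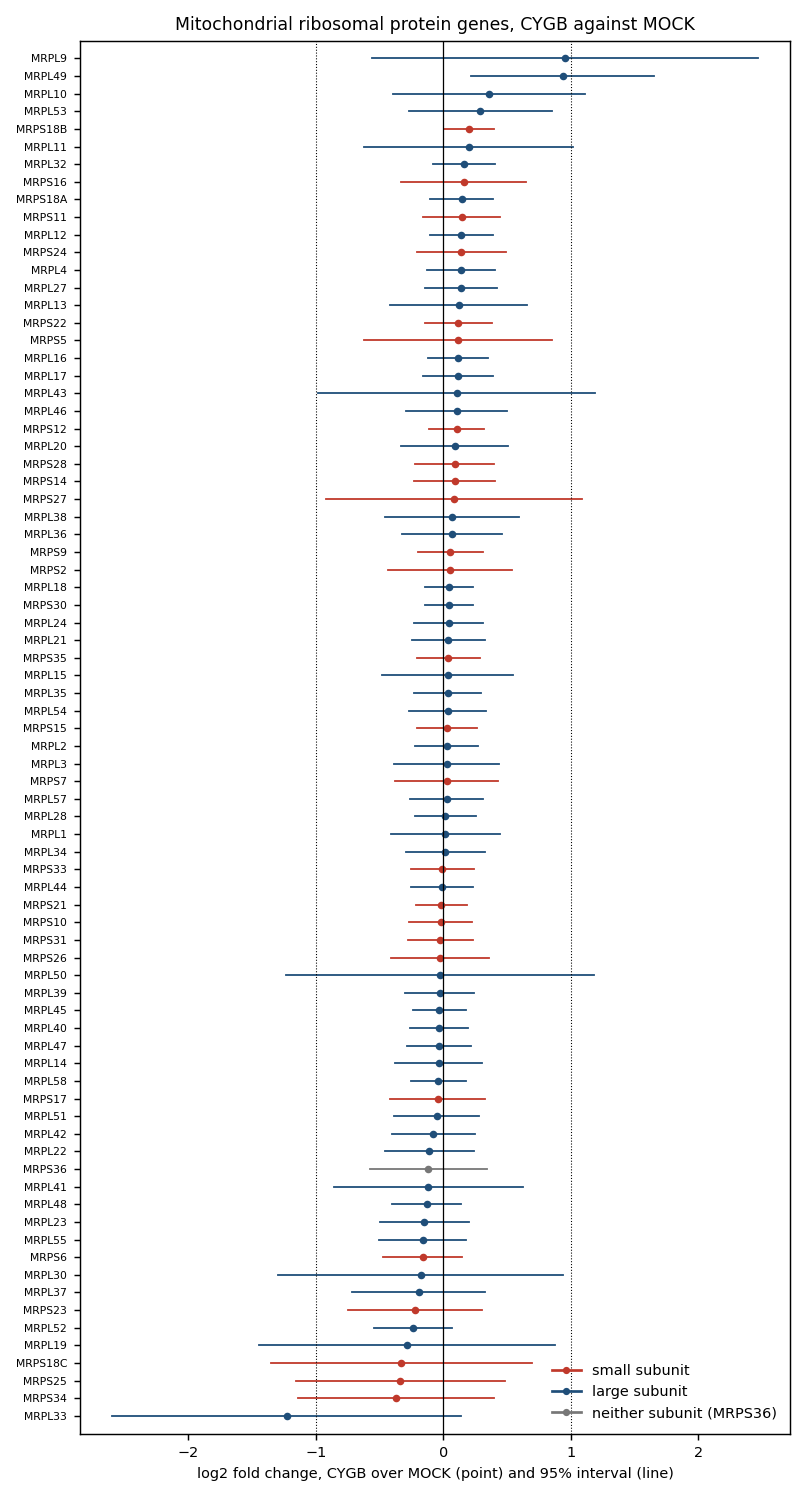
Log2 fold change of CYGB over MOCK for each of the 78 genes (points), with its 95% interval (lines), ordered by value and coloured by ribosomal subunit. Dotted lines mark -1 and 1. Most points lie near 0 with short intervals, and MRPL33 at the bottom and MRPL9 and MRPL49 at the top stand away from them.

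The groups of libraries did not overlap in 5 of the 78 genes (6.41%), against 11.0% of all genes tested. MRPS18B, MRPL32 and MRPL53 were higher in every CYGB library (3.85%, background 5.72%), and MRPL33 and MRPL52 were lower in every one (2.56%, background 5.31%). These shares are below those over all genes.

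The large and small subunit sums stood in a similar proportion in both groups. Summed over the 26 genes of the small subunit, the level was 1405, 1322 and 1310 CPM in MOCK replicates 1 to 3 and 1400, 1303 and 1362 CPM in CYGB replicates 1 to 3. These sums averaged 1345 ± 52.0 CPM for MOCK and 1355 ± 48.7 CPM for CYGB (SD, n = 3 each). For the 51 genes of the large subunit, which include MRPS18A and MRPS30 despite their symbols, the sums were 2970, 2822 and 2840 CPM in MOCK and 3246, 2765 and 2870 CPM in CYGB. CYGB replicate 1 was the highest of the 6 libraries, and the other 2 CYGB libraries lay within or below the range of MOCK. The ratio of the large to the small sum was 2.14 ± 0.0275 in MOCK and 2.18 ± 0.118 in CYGB (SD, n = 3 each). The median log2 fold change was 0.03 in both subunits. It was 0.04 over the 46 genes classed as having a bacterial counterpart, of which 33 were above 0. It was -0.02 over the 31 genes classed as specific to mitochondria, of which 13 were above 0. Over all genes tested, 48.8% were above 0. The class specific to mitochondria also holds MRPS18A and MRPS18B, which are related to a bacterial protein, so the division is a rough one.

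Among small subunit genes, MRPS12, the counterpart of the bacterial protein at the decoding centre (ENSG00000128626, chromosome 19 of GRCh38 from 38930548 to 38933162, plus strand), was measured at 68.3, 65.3 and 71.0 CPM in MOCK and 74.9, 68.4 and 76.8 CPM in CYGB. The lowest CYGB library lay inside the MOCK range. The log2 fold change was 0.11 (95% interval -0.11 to 0.32, adjusted p = 0.963, edgeR quasi-likelihood, Benjamini-Hochberg). MRPS22, a protein found only in mitochondrial ribosomes, had 45.4, 46.6 and 52.0 CPM in MOCK and 52.6, 55.8 and 47.9 CPM in CYGB, with overlapping groups and a log2 fold change of 0.12. MRPS16, a counterpart of bacterial S16, was measured at 3.24 to 4.78 CPM in MOCK and 4.16 to 4.96 CPM in CYGB. MRPS25 had 25.4, 16.3 and 9.83 CPM in MOCK and 14.3, 13.5 and 13.0 CPM in CYGB, so that the MOCK libraries spread over a 2.59-fold range that held all CYGB libraries. Its log2 fold change was -0.34, and 0.06 without MOCK replicate 1.

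The 3 genes of the S18 family are paralogs of each other and are related to 1 bacterial protein. The 95% intervals of their log2 fold changes overlapped. MRPS18B (ENSG00000204568, chromosome 6 from 30617709 to 30626395, plus strand) had 93.9, 100 and 97.8 CPM in MOCK and 105, 113 and 118 CPM in CYGB. All CYGB libraries were above all MOCK libraries. The log2 fold change was 0.20 (standard error 0.08, 95% interval 0.01 to 0.40), with an adjusted p of 0.963 (edgeR quasi-likelihood, Benjamini-Hochberg). MOCK averaged 97.3 ± 3.10 CPM and CYGB 112 ± 6.76 CPM (SD, n = 3 each). When only its most abundant transcript was tested, the log2 fold change was 0.0429. The share of that transcript in the counts of the gene ranged from 64.1 to 99.5% between libraries. MRPS18B overlaps PPP1R10 on the other strand over 904 bases, and PPP1R10 had 40192 counts over the 6 libraries. MRPS18A, which sits in the large subunit, had 54.0, 50.2 and 57.9 CPM in MOCK and 61.0, 55.6 and 62.6 CPM in CYGB, with overlapping groups and a log2 fold change of 0.15. MRPS18C had 45.4, 33.5 and 31.3 CPM in MOCK and 44.8, 29.2 and 13.7 CPM in CYGB. Its log2 fold change of -0.33 rested on CYGB replicate 3, and it was 0.02 without that library.

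Among large subunit genes, those of the stalk, which recruits translation factors, did not pass a test. MRPL12 (ENSG00000262814, chromosome 17 from 81703357 to 81707526, plus strand) had 176, 161 and 160 CPM in MOCK and 201, 162 and 186 CPM in CYGB. Its groups overlapped, and the log2 fold change was 0.14 (95% interval -0.10 to 0.39). MRPL10, which forms the base of the stalk, had 61.3, 61.0 and 70.9 CPM in MOCK and 127, 61.3 and 60.0 CPM in CYGB. Only CYGB replicate 1 was high, and the log2 fold change of 0.36 became -0.09 without it.

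The groups also overlapped in genes near the peptidyl transferase centre and the exit tunnel. MRPL3, a protein close to the peptidyl transferase centre, had 120, 114 and 121 CPM in MOCK and 153, 109 and 99.6 CPM in CYGB, a log2 fold change of 0.03 with a 95% interval of -0.38 to 0.44. MRPL45, which lies at the mouth of the exit tunnel on the side of the inner membrane, had 79.2, 81.4 and 89.1 CPM in MOCK and 81.9, 78.2 and 84.3 CPM in CYGB. All CYGB values lay between 78.2 and 84.3 CPM, and the log2 fold change was -0.03 (95% interval -0.24 to 0.18). Pseudogenes named for MRPL45 held 3.80% of the counts of the gene and pseudogenes together, and reads could be split between such copies. MRPL44, which resembles ribonuclease III, had a log2 fold change of -0.01 (95% interval -0.25 to 0.23). MRPL58, a peptidyl-tRNA hydrolase built into the large subunit, varied least of all 78 genes. It had 45.4, 45.7 and 45.5 CPM in MOCK and 45.9, 42.5 and 44.7 CPM in CYGB, a ratio of highest to lowest library of 1.08. Next were MRPS21 at 1.09 and MRPL18 at 1.102, and MRPS30 was at 1.12.

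Among the genes whose groups did not overlap, MRPL33 differed most between the means. MRPL33 (ENSG00000243147, chromosome 2 from 27771717 to 27988087, plus strand), a counterpart of bacterial L33, had 34.1, 29.4 and 23.1 CPM in MOCK and 11.3, 4.11 and 21.5 CPM in CYGB. The lowest MOCK and the highest CYGB library were close, whereas CYGB replicate 2 was far below the rest. MOCK averaged 28.9 ± 5.55 CPM and CYGB 12.3 ± 8.72 CPM (SD, n = 3 each). The log2 fold change was -1.23 (standard error 0.56, 95% interval -2.60 to 0.14), with an adjusted p of 0.963 (edgeR quasi-likelihood, Benjamini-Hochberg). Without CYGB replicate 2 it was -0.82, and without CYGB replicate 3 it was -1.90. MRPL33 overlaps BABAM2 on the same strand and RBKS on the other. BABAM2 was at 23.8 to 28.2 CPM and RBKS at 2.00 to 3.24 CPM over the 6 libraries.

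MRPL52, a protein of mitochondrial ribosomes without a bacterial counterpart (ENSG00000172590, chromosome 14 from 22829879 to 22835037, plus strand), had 38.2, 32.3 and 32.7 CPM in MOCK and 32.0, 27.0 and 28.5 CPM in CYGB. The gap between the lowest MOCK and the highest CYGB library was smaller than the spread within either group, and the log2 fold change was -0.24 (95% interval -0.54 to 0.07). MRPL32, a counterpart of bacterial L32 (ENSG00000106591, chromosome 7 from 42932200 to 42948958, plus strand), had 47.7, 50.5 and 50.3 CPM in MOCK and 60.7, 53.8 and 51.6 CPM in CYGB. CYGB replicate 3 was barely above MOCK, and the log2 fold change was 0.16 (95% interval -0.08 to 0.41). When only its most abundant transcript was tested, the value was -0.27. MRPL53 was a low gene, with 4.32, 7.10 and 7.09 CPM in MOCK and 7.78, 7.24 and 7.64 CPM in CYGB. Its separation was narrow apart from the low MOCK replicate 1, and the log2 fold change was 0.29 (95% interval -0.27 to 0.85). MRPL53 overlaps CCDC142 on the same strand over 1337 bases, and CCDC142 had 1776 counts over the 6 libraries against 2106 for MRPL53.

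The 2 highest log2 fold changes, of MRPL9 and MRPL49, came from groups that overlapped, and both genes were picked out after their values had been seen. MRPL49 (ENSG00000149792, chromosome 11 from 65122183 to 65127371, plus strand) had 37.1, 41.4 and 53.3 CPM in MOCK and 110, 52.2 and 90.1 CPM in CYGB. CYGB replicates 1 and 3 were well above MOCK, but CYGB replicate 2 lay inside the MOCK range. Its log2 fold change was 0.94 (standard error 0.29, 95% interval 0.22 to 1.65), with an adjusted p of 0.963 (edgeR quasi-likelihood, Benjamini-Hochberg). Without CYGB replicate 2 it passed the threshold of the methods, at a log2 fold change of 1.18 (adjusted p = 0.568 by the same edgeR test), and over all alternatives its adjusted p ranged from 0.314 to 1.00. MRPL49 overlaps FAU and SYVN1 on the other strand. SYVN1, which covers the whole gene, was at 49.1 to 54.6 CPM in the 6 libraries, and FAU at 330.0 to 408 CPM.

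MRPL9, a counterpart of bacterial L9 (ENSG00000143436, chromosome 1 from 151759643 to 151763564, minus strand), had 40.8, 14.9 and 6.41 CPM in MOCK and 41.6, 39.2 and 39.5 CPM in CYGB. MOCK replicate 1 was at the level of the CYGB libraries, and MOCK replicates 2 and 3 were far below it. The log2 fold change was 0.95 (standard error 0.62, 95% interval -0.56 to 2.47), with an adjusted p of 0.963 (edgeR quasi-likelihood, Benjamini-Hochberg). Without MOCK replicate 1 it passed the threshold of the methods at 1.91, and without MOCK replicate 3 it was 0.53. MRPS36, now known as a subunit of the oxoglutarate dehydrogenase complex and not of the ribosome, had 23.8, 22.4 and 19.0 CPM in MOCK and 24.8, 18.4 and 16.9 CPM in CYGB, with overlapping groups and a log2 fold change of -0.12.

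**Figure D3:**
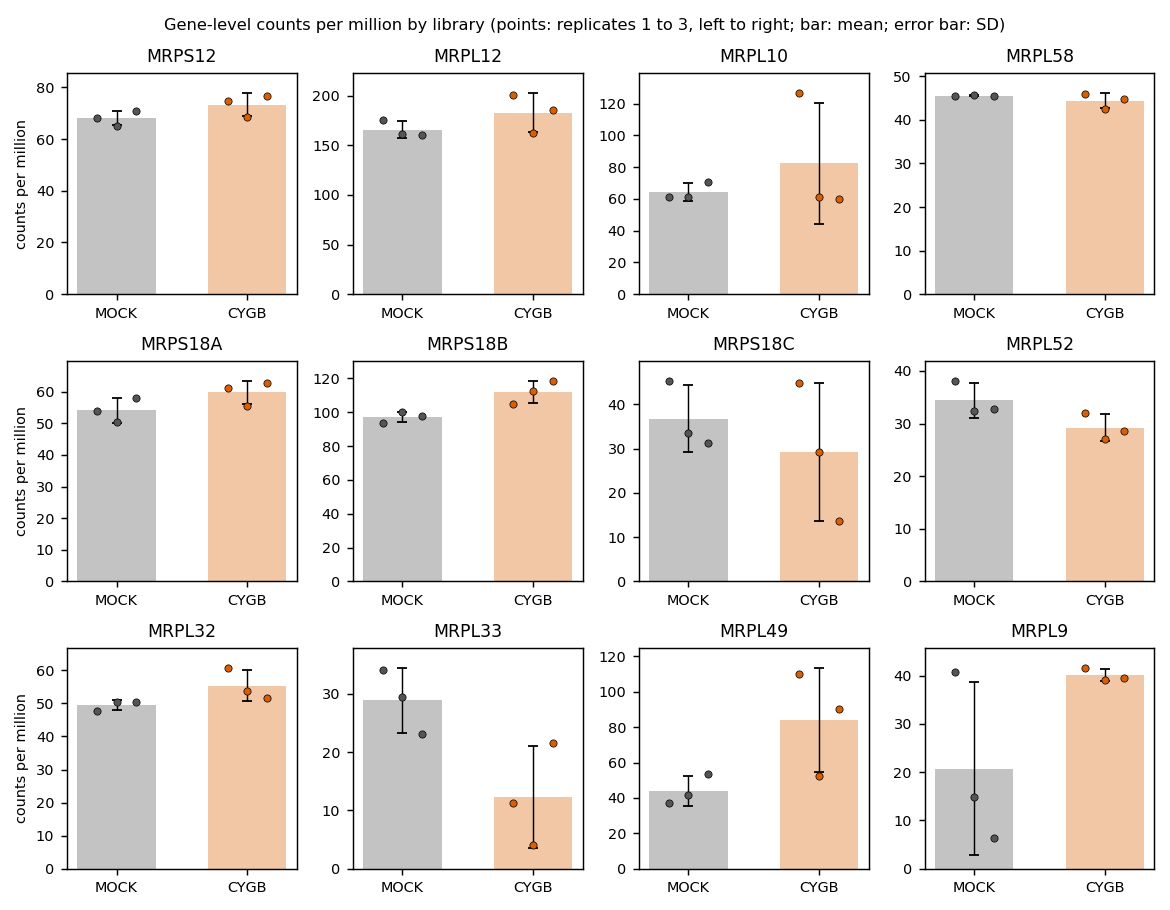
Gene-level CPM (vertical axis, from 0) of 12 genes in MOCK and CYGB. Points are libraries, replicates 1 to 3 from left to right, bars are means and error bars are SDs. MRPL58 and MRPS12 differ little between libraries, MRPS18B is a little higher in CYGB, and MRPL33, MRPL49, MRPL9 and MRPL10 are spread widely within a group.

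Levels between genes were compared per length, as CPM per kilobase of transcript, with the length weighted by the counts of each transcript. The median over the 78 genes was 36.4 CPM per kilobase in MOCK and 37.0 in CYGB. MRPL12 was highest, at 161 ± 8.30 in MOCK, followed by MRPL51 at 98.5 ± 10.1 and MRPL37 at 90.3 ± 17.2 CPM per kilobase (SD, n = 3 each). The step from MRPL12 to MRPL51 exceeded their spread, whereas MRPL51 and MRPL37 overlapped within theirs. Lowest were MRPL46 at 7.16 ± 0.387, MRPS25 at 4.34 ± 1.98 and MRPS16 at 2.33 ± 0.448 CPM per kilobase (SD, n = 3 each). MRPL46 was not separated from the next genes, MRPL42 at 7.30 ± 1.16 and MRPL50 at 7.44 ± 2.98 in MOCK (SD, n = 3 each). MRPL12, MRPL51, MRPL37 and MRPS16 held the same ranks when the longest transcript of each gene was used, and MRPS25 and MRPL46 changed places.

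The spread between libraries was described against other genes in the same range of levels. The ratio of the highest to the lowest of the 6 libraries had a median of 1.32 over the 78 genes, against 1.46 over 10718 other tested genes with a mean level in the same range. It was under 1.2 in 18 genes (23.1%, against 15.0% of the other genes) and over 3 in 4 genes (5.13%, against 14.7%). The 4 genes were MRPL33 at 8.30, MRPL9 at 6.49, MRPS18C at 3.31 and MRPL50 at 3.10. MRPL50 has a single transcript and had 30.02, 13.3 and 31.0 CPM in MOCK and 34.3, 11.0 and 27.6 CPM in CYGB, with 1 low library in each group. Genes of 1 set are not independent, and their median level of 51.9 CPM was above the 29.5 CPM of the other genes, so these shares are a description.

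Many of the 78 genes were highest in CYGB replicate 1. It held the highest value of the 6 libraries in 36 of the 78 genes and the lowest in 1, whereas the other libraries held the highest value in 4 to 14 genes. Its genes were at a median of 0.08 above the gene's own median on the log2 scale, and CYGB replicate 2 was at -0.06. The same was not counted over all genes tested, so whether it is particular to these genes was not tested. Without CYGB replicate 1 the median log2 fold change of the 78 genes was -0.03, and without MOCK replicate 2 it was -0.004. The direction of the median therefore differed with the libraries included.

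**Figure D4:**
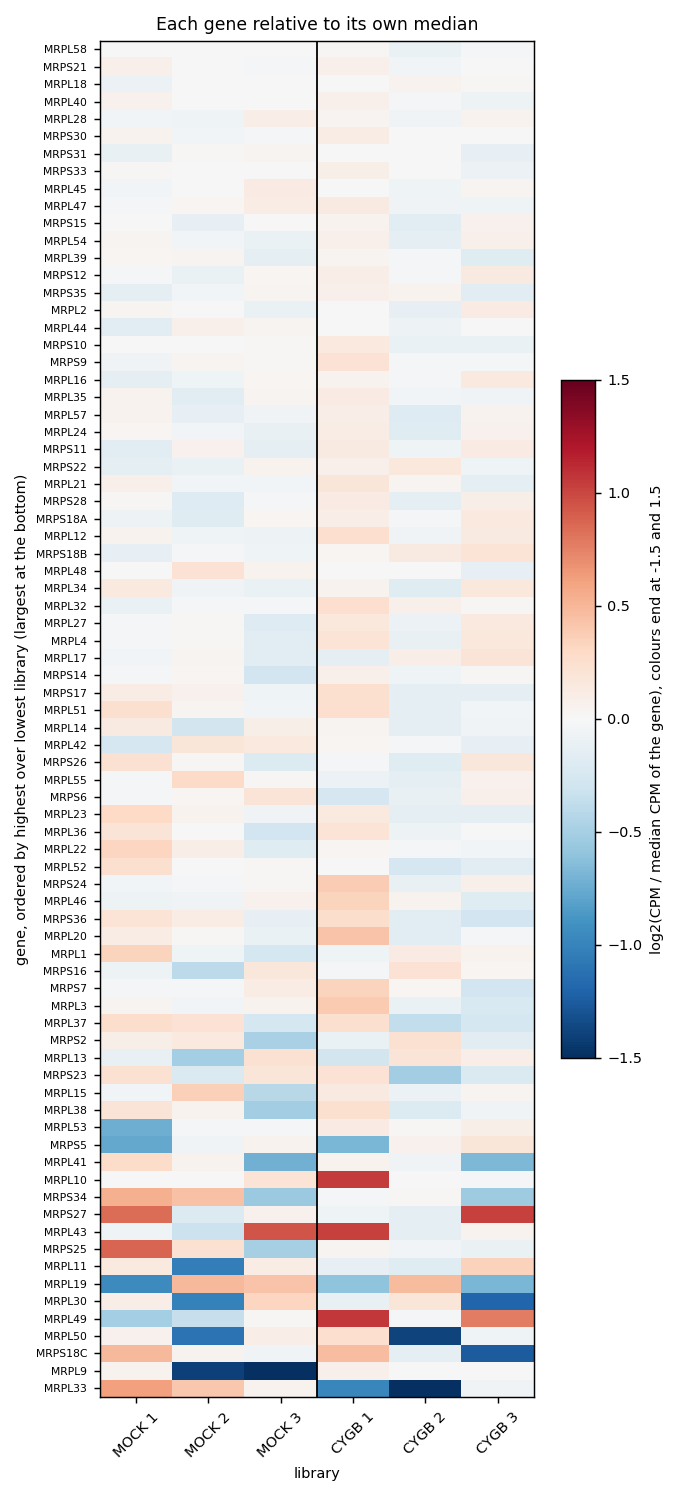
Heat map of log2(CPM over the gene's median CPM) for the 78 genes (rows, ordered by the ratio of highest to lowest library) in the 6 libraries (columns), with a line between MOCK and CYGB. Most rows are pale, CYGB 1 is slightly red in many of them, and strong colours appear mainly in the genes at the bottom, such as MRPL33 and MRPL9.

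Transcripts varied more than the sums over a gene, in these genes and over the whole table. The biological coefficient of variation common to all transcripts was 78.9%, against 36.6% for genes. Of the 476 transcripts of the 78 genes, 19 had no count and 328 were tested. The threshold of the methods was passed by 1 of the 328 (0.305%), which was lower in CYGB, against 1.02% of all 66609 transcripts tested (0.482% lower in CYGB). None reached an adjusted p under 0.05 in the same edgeR fit (background 0.015%), and 5 had an unadjusted p under 0.05 (1.52%, background 3.78%). The groups did not overlap in 26 transcripts (7.93%, background 10.4%), and the 95% interval lay within -1 and 1 for 28.4% of them (background 16.8%).

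The transcript past the threshold was ENST00000366733 of MRPL55, a large subunit gene with a bacterial counterpart and 32 listed transcripts. It had 36, 86 and 129 counts in the MOCK replicates and 5, 12 and 3 in the CYGB replicates, with no overlap. This gave a log2 fold change of -3.61, with a standard error of 0.76 and an adjusted p of 0.561 (edgeR quasi-likelihood, Benjamini-Hochberg). It was not called without CYGB replicate 1, without CYGB replicate 3 or without MOCK replicate 2 or 3. The groups overlapped for the sum over the transcripts of MRPL55, at 18.6, 23.1 and 19.1 CPM in MOCK and 17.8, 17.0 and 19.7 CPM in CYGB, a log2 fold change of -0.16. Another MRPL55 transcript, ENST00000295008, had 25, 53 and 39 counts in the MOCK replicates and 126, 45 and 172 in the CYGB replicates, and reached an unadjusted p under 0.05. The other 3 transcripts at that level belonged to MRPL23, of which 1 was lower and 2 were higher in CYGB.

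The transcript with most counts differed between libraries in 14 of the 78 genes. In 15 genes the share of the overall top transcript moved by more than 30 percentage points between libraries. Neither number was taken over other genes. ENST00000457646 of MRPS27 took 83.7, 0.0 and 24.9% of the gene's counts in MOCK and 1.34, 2.91 and 75.0% in CYGB. Its highest libraries, MOCK replicate 1 and CYGB replicate 3, were also those in which MRPS27 as a whole was highest, at 116 and 132 CPM against 56.0 to 67.7 CPM in the other 4. In MRPL33, ENST00000296102 had 1245, 1198 and 908 counts in the MOCK replicates and 222, 5 and 835 in the CYGB replicates, whereas ENST00000379666 had 274, 220 and 181 counts in the MOCK replicates and 275, 142 and 173 in the CYGB replicates. The low CYGB values of MRPL33 lay in the first of the 2 transcripts. In MRPL9, ENST00000368830 had 1595, 564 and 67 counts in the MOCK replicates and 1719, 1771 and 1817 in the CYGB replicates.

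In MRPL49 the high CYGB values came from different transcripts. ENST00000279242 had 5342 counts in CYGB replicate 1, against 611 to 1321 counts in the other 5 libraries. ENST00000532671 had 3502 counts in CYGB replicate 3, against 147 to 729 counts in the others. How reads were divided among the transcripts of a gene is not given in the sources used here, and its part in these values was not tested. In MRPL12, which has 1 transcript, no such division arises.

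**Figure D5:**
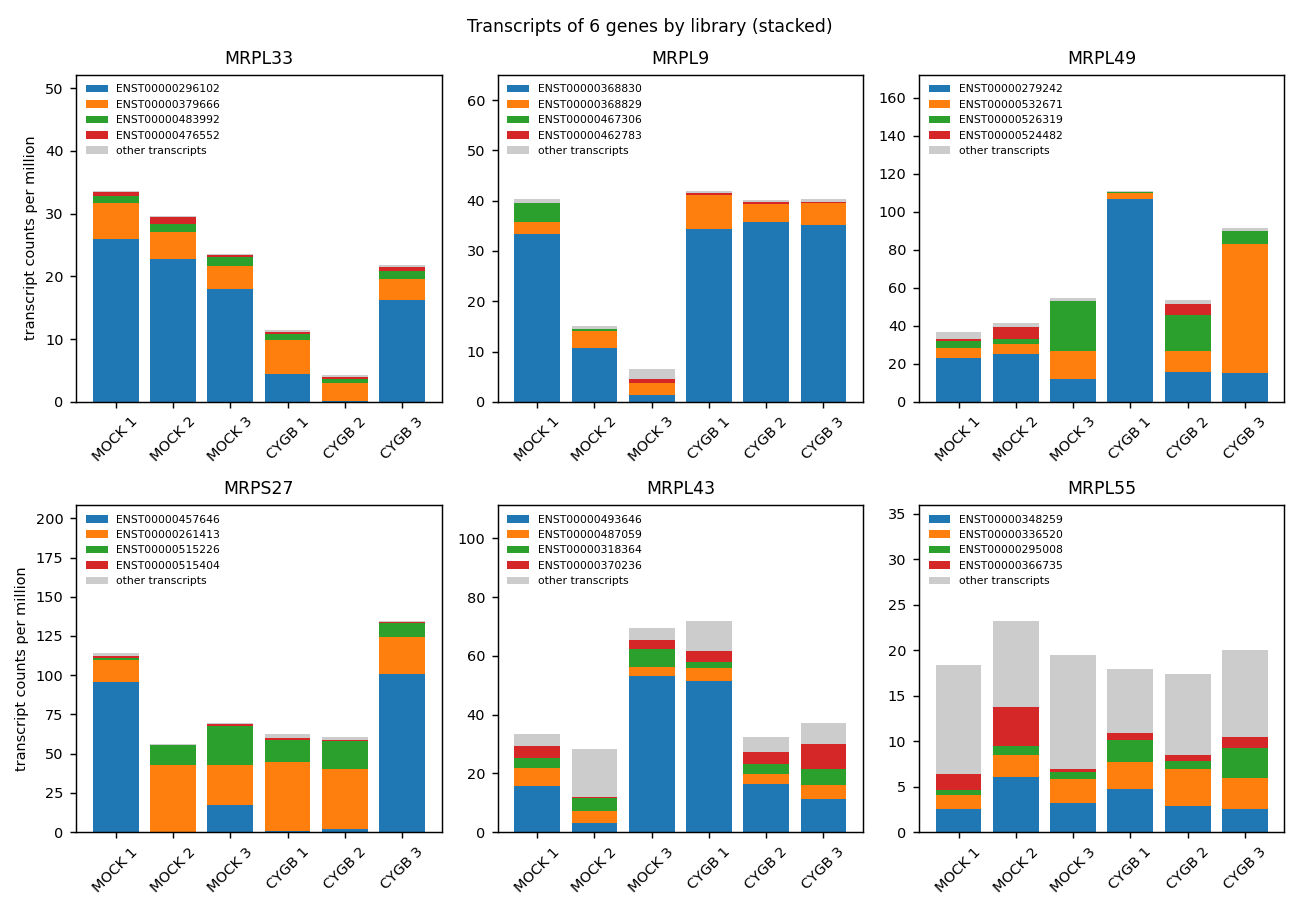
Stacked transcript CPM (vertical axis, from 0) of 6 genes in each library, with the 4 transcripts of most counts coloured and the others in grey. The blue transcript of MRPL33 is nearly absent from CYGB 2, that of MRPL9 from MOCK 3 and that of MRPS27 from 3 libraries, while CYGB 1 and CYGB 3 of MRPL49 are filled by different transcripts.

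Other genes of mitochondrial translation also stayed short of the thresholds. Of 6 subunits of the mitoribosome whose symbols do not match (such as DAP3 and PTCD3 of the small subunit), none passed the threshold of the methods and none had an adjusted p under 0.05 in either direction. Their median log2 fold change was -0.07. The smallest p was that of GADD45GIP1, a large subunit protein, with 88.3, 125 and 29.995 CPM in MOCK and 38.2, 70.0 and 27.1 CPM in CYGB, overlapping groups and a log2 fold change of -0.85 (standard error 0.58). Of 26 tested assembly factors none passed either threshold, and the median was 0.10. DDX28, a helicase of large subunit assembly, had 13.2, 14.0 and 13.3 CPM in MOCK and 19.0, 16.7 and 14.8 CPM in CYGB, a log2 fold change of 0.32 (standard error 0.14).

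Of 17 tested translation factors none passed either threshold, and the median was -0.19. The value was above 0 in 6 and below 0 in 11 of them (background 48.8% above 0). The log2 fold changes ranged from -2.23 to 0.26, and 2 of the 17 had an unadjusted p under 0.05 with edgeR (background 4.54%). The gene with the smallest p was not the one with the lowest value. It was MTIF3, an initiation factor, with 16.3, 18.0 and 19.7 CPM in MOCK and 12.7, 14.4 and 14.1 CPM in CYGB, without overlap. Its log2 fold change was -0.39, at a standard error of 0.13 (adjusted p = 0.963, edgeR quasi-likelihood, Benjamini-Hochberg). TUFM, the elongation factor that delivers aminoacyl-tRNA, was measured at 402 to 460 CPM in MOCK and 414 to 459 CPM in CYGB. Of 19 tested genes of mitochondrial DNA copying and transcription none passed either threshold, with a median of 0.03, and HSD17B10, a subunit of mitochondrial ribonuclease P, had the smallest p at a log2 fold change of 0.21.

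The ribosomal RNAs with which these proteins assemble also had counts in the same libraries. Whether ribosomal RNA was removed before sequencing is not stated, so these counts need not follow its amount. MT-RNR1, of the small subunit, had 1874, 1942 and 1941 CPM in MOCK and 1972, 1787 and 1863 CPM in CYGB, with overlapping groups and a log2 fold change of -0.03. MT-RNR2, of the large subunit, had 15866, 16611 and 16053 CPM in MOCK and 14264, 14886 and 15043 CPM in CYGB. Its CYGB libraries were all below MOCK, with a log2 fold change of -0.14 and a standard error of 0.05 (adjusted p = 0.963, edgeR quasi-likelihood, Benjamini-Hochberg). Of 15 mitochondrially encoded genes 11 were tested, and none passed either threshold. The counts of this genome were uneven. MT-ND5 was at 0.76 CPM in MOCK replicate 1 and at 4633 to 5406 CPM in the other libraries, and MT-CO3 was at 5684 CPM in MOCK replicate 3 and at 0.15 CPM or less elsewhere.

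The groups overlapped for GABPA, YY1 and NRF1, whose cores were searched for in the promoters. Other ETS factors can bind the ETS core too, and their values are not given here. GABPA had 67.7, 76.5 and 71.7 CPM in MOCK and 73.5, 72.6 and 64.6 CPM in CYGB, a log2 fold change of -0.04. YY1 had 186, 126 and 172 CPM in MOCK and 176, 175 and 167 CPM in CYGB, a log2 fold change of 0.10. NRF1 had 45.7, 44.97 and 49.6 CPM in MOCK and 48.3, 36.2 and 44.9 CPM in CYGB, a log2 fold change of -0.12. Of 11 tested transcription factors of nuclear genes for mitochondria none passed either threshold, and CREB1 had the smallest p at a log2 fold change of -0.90 (standard error 0.45, 95% interval -1.99 to 0.19). For comparison, none of 79 tested cytosolic ribosomal protein genes passed either threshold, and 4 had an unadjusted p under 0.05 with edgeR (background 4.54%). The median log2 fold change of the 79 was -0.08, with 22 above 0 and 57 below 0 (background 48.8% above 0). RPS3A, a small subunit protein of the cytosolic ribosome, had the smallest p of these and went the other way, with 747, 630.1 and 592 CPM in MOCK and 966, 949 and 1159.9 CPM in CYGB. All its CYGB values were above MOCK, at a log2 fold change of 0.64 and a standard error of 0.12 (adjusted p = 0.844, edgeR quasi-likelihood, Benjamini-Hochberg).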

How the data were processed

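RNA-seq libraries of HCT116 cells were compared, 3 MOCK and 3 CYGB, grouped by their titles. The deposited table holds raw, unnormalized counts of each transcript in the 6 libraries, made by the authors. The submitters' processing notes name HISAT2, HISAT, DESeq2 and hg19, and the counting tool is not given in the sources used here. However, of 151453 transcripts with a gene, 151393 were found in GENCODE 29, 99.5% of them at the same GRCh38 position, so GRCh38 coordinates are given. A further 21225 transcripts name no gene. They took 18.6 to 19.5% of each library and entered neither the library sizes nor the tests.

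Counts were summed per gene, filtered with filterByExpr (minimum count 10), scaled with TMM and fitted with the quasi-likelihood model of edgeR 4.0.16 (glmQLFit, glmQLFTest) in R 4.3.3 over all 19987 genes, and likewise over 66609 transcripts. P-values were adjusted over all of them by Benjamini and Hochberg's method. The call rule of the study's methods asks for p at or below 0.01 before adjustment and a ratio of at least 2 or at most 0.5. The steps were run on simulated counts in which the changed features differed far more than any mitochondrial ribosomal protein gene did here. That run does not bear on small changes. Each library was counted as 1 replicate. Pairs of libraries differed far beyond sampling noise, at a chi-square per gene of 114 to 143 within MOCK and 120 to 125 within CYGB. Between the groups the chi-square per gene was 108 to 146. These values cannot show that the libraries of a group were independent. P-values set the difference between the groups against the spread between these libraries, of which 3 per group and the depth limit the precision.

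The genes, the other lists, the promoter cores and the tests were chosen with earlier results of these data known. Genes were named if called at the gene level, if among the 6 largest differences in each direction at 10 CPM or more without overlap, if among the 3 highest or lowest per length in MOCK, if they had a called transcript, or for their role (MRPS12, MRPL10, MRPL12, MRPL3, MRPL45, MRPS18A, MRPS18B, MRPS18C, MRPL58, MRPL44, MRPS22 and MRPS36). Of the other lists the gene with the smallest p was named. MRPL9, MRPL49, MRPL53, MRPL50, MRPS21, MRPL18, MRPS27, MRPS30, MRPL23, MRPL11, MRPL30, MRPL42 and MRPL43 were named after their values were seen. So were TUFM, GABPA, YY1, NRF1 and the mitochondrially encoded genes other than MT-RNR2. Alternatives were DESeq2 1.42.0, DESeq2 size factors, the fit with no filter, a filter at a mean of 50 counts or more, pseudogenes added to their gene, the most abundant transcript, transcripts without a gene kept, the replicate block and leaving out each library. Promoters were RefSeq's (GRCh38.p14). Figures were drawn with matplotlib 3.10.9.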

Additional observations from a re-analysis of the deposited data

How the results depend on the processing

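None of the 78 genes had an adjusted p under 0.05 in any of the 14 alternatives run with edgeR or DESeq2, and none passed the threshold of the methods in 12 of them. The exceptions were MRPL49 without CYGB replicate 2 and MRPL9 without MOCK replicate 1, so that leaving out 1 library gave 0 to 1 called genes. The number at an unadjusted p under 0.05, 2 in the reported fit, ranged from 1 to 3 over the other settings and from 0 to 3 with 1 library left out, lowest without MOCK replicate 2, and it was 1 with the most abundant transcript, with no expression filter and with the replicate block. The median log2 fold change ranged from -0.03 to 0.06 with 1 library left out. Over all genes, 113 passed the threshold, 263 with DESeq2, 62 under a filter at a mean of 50 counts, 72 with transcripts without a gene kept and 124 to 177 with 1 library left out. An adjusted p under 0.05 was reached by 11 genes, 108 with DESeq2, 6 with transcripts without a gene kept and 6 to 14 with 1 library left out. Of all transcripts, 681 passed the threshold, 1506 with DESeq2, 319 under a filter at a mean of 50 counts and 961 to 1209 with 1 library left out. Of the transcripts of the 78 genes, 1 passed it, 3 with DESeq2, 0 under a filter at a mean of 50 counts, 2 with no expression filter and 1 to 5 with 1 library left out. DESeq2 gave 1 of these transcripts an adjusted p under 0.05. The median level per length was 36.4 CPM per kilobase, and 28.8 with the longest transcript of each gene. Fewer features were tested at the higher filter, and other causes were not tested.

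With the most abundant transcript alone the log2 fold change changed sign for MRPL11 (-0.0595), MRPL32 (-0.27), MRPL58 (0.0323), MRPS21 (0.13), MRPS22 (-0.11) and MRPS27 (-0.16). With 1 library left out it changed sign within -0.0879 to 0.55 for MRPL10, -0.0956 to 0.38 for MRPL11, -0.18 to 0.15 for MRPL3, -0.49 to 0.13 for MRPL30, -0.34 to 0.59 for MRPL43, -0.0859 to 0.0348 for MRPL44, -0.0660 to 0.0207 for MRPL45, -0.0386 to 0.23 for MRPL46, -0.36 to 0.32 for MRPL50, -0.18 to 0.0303 for MRPL51, -0.78 to 0.0151 for MRPS18C, -0.0504 to 0.0118 for MRPS21, -0.62 to 0.0573 for MRPS25 and -0.40 to 0.45 for MRPS27. Whether the replicate numbers pair the libraries is not stated, and the reported fit used no block. The deviations of libraries with 1 number from the means of their groups correlated at 0.016, 0.0049 and 0.025 over all tested genes. Libraries with different numbers correlated at -0.02 to 0.0045. Values this small over all genes cannot decide whether the libraries were paired. A fit with the replicate block gave 0 genes an adjusted p under 0.05, called 291 transcripts, and called 0 of those of the 78 genes.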
